A study of Homo sapiens with 6 samples.

Results

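The endoplasmic reticulum (ER) folds secreted and membrane proteins, and the 41 genes described here encode its folding machinery and the sensors that watch over it. The members were a list of gene symbols, matched to 41 of the 63140 gene IDs of the count table. They fall into 5 classes by role, namely 13 chaperones and stress-induced luminal proteins, 7 disulfide enzymes, 9 components of ER-associated degradation (ERAD), 6 genes of the translocon and its partners and 6 sensors and transcription factors. The RNA came from Y79, an established human retinoblastoma cell line labelled WT, and all cells grew in serum-containing RPMI medium. The 3 control libraries came from this complete medium, and the 3 rhArg libraries from the same medium with 2 U/mL recombinant human arginase, an enzyme that degrades arginine, for 72 h. The comparison asked how the mRNA of this machinery changed when Y79 cells were deprived of arginine. Whether each library was grown as its own culture is not in the labels. The p-values therefore describe how much these libraries vary, and that variation may be only technical.

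Unfolded proteins in the ER lumen are sensed in 3 ways. IRE1, the product of ERN1, cuts out a short intron from the mRNA of XBP1, and the spliced form encodes a transcription factor for ERAD and secretory genes. ATF6 travels to the Golgi, is cleaved there and induces chaperone genes such as HSPA5, while PERK phosphorylates the initiation factor eIF2 and so favours translation of ATF4. The eIF2 and ATF4 step is shared with GCN2, the kinase that senses uncharged tRNA when amino acids run short. Gene counts give the total mRNA of a gene, and neither splicing of XBP1 nor cleavage of ATF6 can be seen in them.

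Promoters of this family are known for short shared elements, which are printed here because some members with the same element moved in opposite directions under rhArg. Sequences are from RefSeq promoter windows of GRCh38.p14, which run from 250 bases before to 50 bases after each start site and were given for 38 of the 41 members. The ER stress response element (ERSE) was searched as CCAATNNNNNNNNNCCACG and ERSE-II as ATTGGNCCACG, each on both strands. The unfolded protein response element (UPRE, the letters TGACGTGG) and the C/EBP-ATF response element (CARE, the letters TGATGNAA) were searched in the same way. Capitals mark the ERSE, ERSE-II or CARE match named in each line, on either strand, and not the UPRE of HYOU1 that overlaps its first ERSE-II. Each line is read 5′ to 3′ on the strand of the gene, and every stretch lies upstream of its RefSeq start. The Ensembl gene span reaches into the stretch of HSPA5, HSP90B1, PDIA6 and XBP1.
HSPA5 (ERSE, chr9:125241371-125241429, minus strand): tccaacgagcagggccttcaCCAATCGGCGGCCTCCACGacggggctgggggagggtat
HSP90B1 (ERSE on each strand, chr12:103930196-103930359, plus strand): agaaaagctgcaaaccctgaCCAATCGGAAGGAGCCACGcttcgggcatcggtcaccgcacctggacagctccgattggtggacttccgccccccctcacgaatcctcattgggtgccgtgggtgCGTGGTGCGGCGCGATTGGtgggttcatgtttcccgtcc
CALR (ERSE, reverse, chr19:12938364-12938422, plus strand): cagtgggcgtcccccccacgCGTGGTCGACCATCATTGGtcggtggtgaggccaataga
PDIA6 (ERSE, chr2:10812833-10812891, minus strand): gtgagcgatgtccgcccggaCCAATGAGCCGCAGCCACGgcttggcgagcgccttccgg
XBP1 (ERSE, chr22:28800583-28800641, minus strand): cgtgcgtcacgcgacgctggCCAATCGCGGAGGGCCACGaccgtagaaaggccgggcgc
HERPUD1 (CARE, reverse, then ERSE-II, chr16:56931946-56932055, plus strand): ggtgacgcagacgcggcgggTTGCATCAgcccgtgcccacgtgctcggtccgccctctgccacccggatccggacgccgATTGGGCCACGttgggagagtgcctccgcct
HYOU1 (ERSE-II, reverse, at both places, chr11:119057254-119057410, minus strand): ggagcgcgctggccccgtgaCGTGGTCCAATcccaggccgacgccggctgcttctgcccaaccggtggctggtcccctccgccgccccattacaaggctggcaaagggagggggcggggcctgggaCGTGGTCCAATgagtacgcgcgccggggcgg
SDF2L1 (ERSE-II, reverse, chr22:21642094-21642144, plus strand): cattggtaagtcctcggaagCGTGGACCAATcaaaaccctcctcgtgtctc

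The 6 libraries held between 12580622 and 13747351 counts, of which the members took between 0.5015% and 0.538%. Replicates were not copies of each other, since a chi-square test of their counts gave 3.91 to 18.2 per degree of freedom, and each library was 1 replicate. Normalised counts are counts scaled by TMM factors to the mean library, and a gene was called at an adjusted p under 0.05 from edgeR's quasi-likelihood test over 15221 genes. A gene that also passed an absolute log2 fold change of 1 was counted as differentially expressed (DEG). TMM assumes that most genes stay level (the median log2 fold change over the tested genes was -0.01), and a change common to every gene cannot be detected with it. Of 7 genes listed for the photoreceptor lineage, MYCN among them, 5 fell and CRX rose, and MYCN was 4.14-fold lower. Their summed level was 83155 to 103170 normalised counts in the controls and 42951 to 44646 under rhArg. MYCN alone had 44823 to 61787 in the controls and 12002 to 14011 under rhArg. The fall of the sum was therefore mostly that of MYCN. Of 12 markers of glia, fibroblasts, leukocytes, endothelium and epithelium, RLBP1, LUM, CD3E and KRT5 were at 0 in every library. The summed level was 76.3 to 94.8 in the controls and 220 to 274 under rhArg. That rise was the rise of SLC1A3, which was 13.5-fold higher. SLC1A3 had 11.9 to 17.2 normalised counts in the controls and 164 to 214 under rhArg. VWF was 3.25-fold higher from few counts, 2.98 to 5.39 in the controls and 9.98 to 18.3 under rhArg. COL1A1, COL1A2 and PTPRC lay below every control under rhArg, but COL1A1 was not called and the others were too low to be tested. DCN, CD14 and PECAM1 were also too low to be tested. The part of these shifts in the results was not tested. In bulk RNA, fewer cells in a given state and less RNA per cell cannot be told apart.

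The ER folding genes did not move as a block. Of the 40 members that passed the filter on low counts, 17 rose under rhArg, 11 fell and 12 were not called, so 42.5% were higher and 27.5% were lower, against 30.7% and 30.9% of all genes tested. As DEGs, 4 members were higher (XBP1, CREB3L1, HERPUD1 and SEL1L) and 2 were lower (PDIA4 and SDF2L1), while 12.4% of all genes tested were higher DEGs and 11% were lower DEGs. The values of the rhArg libraries lay above those of every control library for 19 members and below for 11 members, against 33.4% and 33.1% of all genes tested, and the groups overlapped for 10 members. The median log2 fold change of the members was 0.12, with a range from -1.30 to 2.94. The median absolute change was 0.51 for the members and 0.51 for all genes tested, so neither the share called nor the size of change set the members apart as a whole. The classes differed in direction, with most calls upward in ERAD and among the sensors, most downward among the chaperones, and both directions among the disulfide enzymes.

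**Figure D1:**
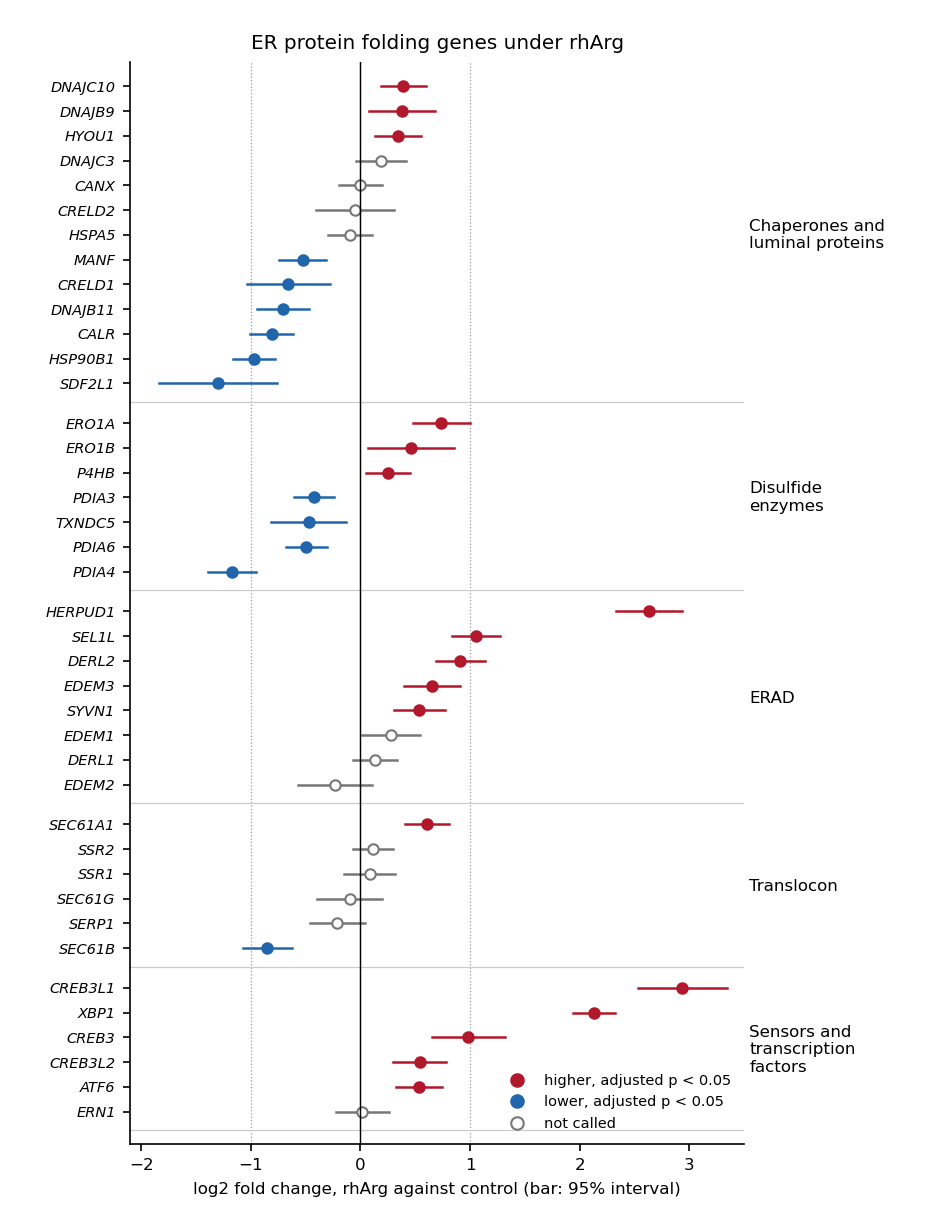
Log2 fold change under rhArg against control (x axis) for the 40 tested members (y axis), grouped by class, with 3 libraries per group. Points are the edgeR estimates, bars are 95% intervals, red and blue mark genes higher and lower at an adjusted p under 0.05, open points were not called, and dotted lines mark a change of 1. HERPUD1, CREB3L1 and XBP1 lie above 2, while the highest chaperone, DNAJC10, lies at 0.39.

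Among the chaperones, HSP90B1 and CALR fell, HSPA5 and CANX were not called, and the cochaperones divided. Of 13 chaperones and luminal proteins, 6 fell, 3 rose and 4 were not called, with a median log2 fold change of -0.09. HSPA5 (chr9:125234853-125241382), also known as BiP, is the main chaperone of the ER lumen and the usual marker of the unfolded protein response. It had 5151, 6099 and 5442 normalised counts in the controls and 5505, 5014 and 5115 under rhArg. The groups overlapped, and the log2 fold change was -0.09 (95% interval from -0.29 to 0.10, edgeR adjusted p = 0.392). The interval ends at 0.10 on the log2 scale, but it covers only the variation among these libraries, which may be only technical. It is also relative to the other genes, as TMM sets the scale. HSP90B1 (chr12:103930107-103953931) encodes GRP94, the HSP90-type chaperone of the lumen. It had 4179, 4240 and 4351 normalised counts in the controls and 2360, 2034 and 2139 under rhArg, and all rhArg libraries lay below all controls. HSP90B1 was 1.95-fold lower (log2 fold change -0.97, standard error 0.09, edgeR adjusted p = 1.87e-07).

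The lectin chaperones calreticulin and calnexin, which bind the same sugar on folding glycoproteins, went separate ways. CALR (chr19:12938578-12944489), the soluble lectin, had 9835, 11749 and 10454 normalised counts in the controls and 5976, 6356 and 5935 under rhArg. Its groups did not overlap, and it was 1.75-fold lower (log2 fold change -0.81, standard error 0.09, edgeR adjusted p = 1.73e-06). CANX, the membrane-bound lectin, had 7297, 6181 and 6696 normalised counts in the controls and 6860, 6265 and 7039 under rhArg. Its log2 fold change was -0.00 (95% interval from -0.20 to 0.20, edgeR adjusted p = 0.996). Within a library, the ratio of CANX to CALR counts was 0.636 ± 0.108 in the controls and 1.11 ± 0.11 under rhArg (SD, n = 3 each).

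The J-domain cochaperones of HSPA5 also changed in both directions. DNAJC10, a J-domain protein with disulfide reductase activity that serves ERAD, had 1105, 945.7 and 987.6 normalised counts in the controls and 1376, 1267 and 1346 under rhArg. It rose 1.31-fold (log2 fold change 0.39, standard error 0.10, edgeR adjusted p = 0.00208). DNAJB9, which recruits HSPA5 to IRE1 and restrains it, had 209.5, 157.3 and 198.5 normalised counts in the controls and 230.4, 237.5 and 267.1 under rhArg. Its increase was small (log2 fold change 0.38, standard error 0.14, edgeR adjusted p = 0.0305), and the call was lost without control replicate 2, control replicate 3, rhArg replicate 2 or rhArg replicate 3, and when DESeq2 tested every gene with a count, with adjusted p from 0.0546 to 0.132 and a log2 fold change of 0.25 without control replicate 2. DNAJB11, which hands unfolded substrates to HSPA5, had 364.5, 371.6 and 357.9 normalised counts in the controls and 224.4, 221.5 and 224.7 under rhArg. It fell by 0.71 on the log2 scale (standard error 0.11, edgeR adjusted p = 5.41e-05), with the groups far apart. DNAJC3, which acts on HSPA5 and was described as an inhibitor of PERK, was not called (log2 fold change 0.19, 95% interval from -0.04 to 0.42).

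HYOU1, a large HSP70-related protein that exchanges the nucleotide of HSPA5, had 2494, 3113 and 2894 normalised counts in the controls and 3724, 3407 and 3669 under rhArg. It rose 1.27-fold (log2 fold change 0.35, standard error 0.10, edgeR adjusted p = 0.00614), while SIL1, the other exchange factor, was 1.64-fold lower. SDF2L1, a partner of DNAJB11, had the largest decrease of the members (log2 fold change -1.30, standard error 0.25), with 27.0 to 54.8 normalised counts under rhArg and 81.4 to 135 in the controls. MANF, a secreted stress protein, fell by 0.52 on the log2 scale. CRELD1 fell by 0.66, and CRELD2 was not called (-0.05, 95% interval from -0.41 to 0.31). CRELD1 shares 41.5% of its exon bases with other genes, mainly PRRT3 on the opposite strand, and the counting took no account of strand.

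**Figure D2:**
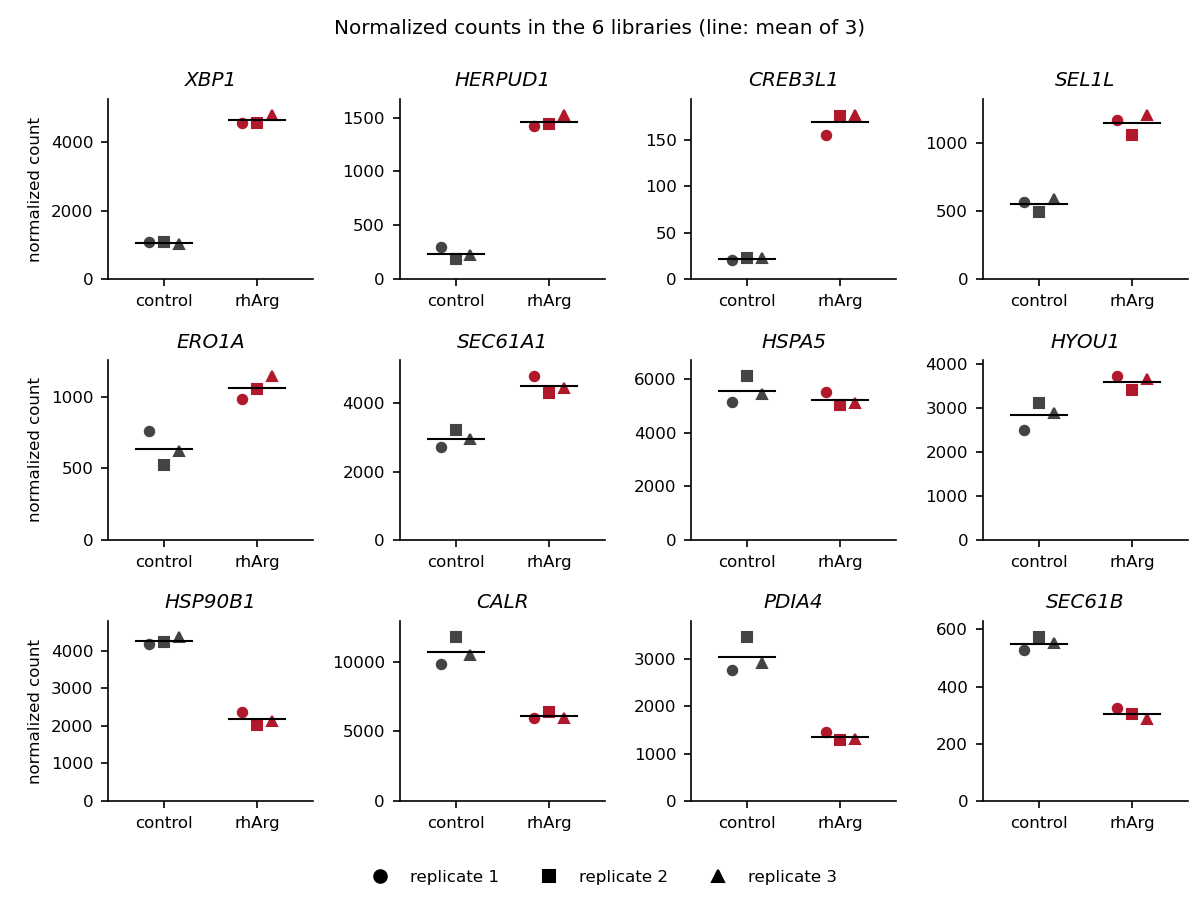
Normalised counts (y axis, from 0) of 12 members in the 3 control and 3 rhArg libraries (x axis), with 1 point per library and a line at the mean. The rhArg libraries lie above every control for XBP1, HERPUD1, CREB3L1, SEL1L, ERO1A, SEC61A1 and HYOU1, below every control for HSP90B1, CALR, PDIA4 and SEC61B, and overlap the controls for HSPA5.

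Of 7 disulfide enzymes, ERO1A, ERO1B and P4HB rose, PDIA3, PDIA4, PDIA6 and TXNDC5 fell, and the median log2 fold change was -0.42. PDIA4 (chr7:149003062-149028662), a large isomerase that works with HSPA5, had 2759, 3453 and 2921 normalised counts in the controls and 1448, 1284 and 1316 under rhArg. The groups did not overlap, and PDIA4 was 2.26-fold lower (log2 fold change -1.17, standard error 0.10, edgeR adjusted p = 9.20e-08). PDIA6, an isomerase that binds IRE1, had 2873, 2936 and 2690 normalised counts in the controls and 1982, 1966 and 2096 under rhArg (log2 fold change -0.49, standard error 0.09, edgeR adjusted p = 0.000155). It shares 25.2% of its exon bases with ATP6V1C2 on the opposite strand. PDIA3, the isomerase that partners calreticulin and calnexin, had 3253, 3525 and 3285 normalised counts in the controls and 2534, 2492 and 2477 under rhArg (log2 fold change -0.42, standard error 0.09, edgeR adjusted p = 0.000490). TXNDC5 fell by 0.47, but 61.1% of its exon bases lie in other genes, mostly the readthrough gene BLOC1S5-TXNDC5, so its count is uncertain, and the call was lost without control replicate 2 or rhArg replicate 2 (adjusted p = 0.0530 and 0.0868 from edgeR).

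P4HB, the classical protein disulfide isomerase and also a subunit of prolyl hydroxylase, went the other way. It had 6424, 7289 and 6386 normalised counts in the controls and 8668, 7883 and 7431 under rhArg (log2 fold change 0.25, standard error 0.09, edgeR adjusted p = 0.0277). The oxidase ERO1A (chr14:52639915-52695900), which passes electrons from the isomerases to oxygen, had 761.7, 522.4 and 618.0 normalised counts in the controls and 980.3, 1056 and 1141 under rhArg. It rose 1.67-fold (log2 fold change 0.74, standard error 0.12, edgeR adjusted p = 8.62e-05). Its paralog ERO1B had 142.0, 87.2 and 113.4 normalised counts in the controls and 162.6, 134.7 and 175.5 under rhArg (log2 fold change 0.46, standard error 0.18, edgeR adjusted p = 0.0386), and its groups overlapped. The ratio of ERO1A to PDIA4 counts was 0.213 ± 0.062 in the controls and 0.789 ± 0.099 under rhArg (SD, n = 3 each). ERO1A was the only disulfide enzyme called higher without control replicate 3 or without rhArg replicate 1, since P4HB and ERO1B were then lost (edgeR adjusted p from 0.0953 to 0.164). P4HB was also lost without control replicate 1 or rhArg replicate 2 (0.0540 and 0.0655), and ERO1B without control replicate 2 or rhArg replicate 3 (0.169 and 0.147) and with DESeq2 on every gene with a count (0.0709). Without control replicate 2 the log2 fold change of ERO1B was 0.29.

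The ERAD members were higher wherever they were called, but of 21 tested ERAD genes outside the members 8 were higher and 5 lower. Of all genes tested, 30.7% were higher and 30.9% lower. Of 8 tested members, 5 rose, 3 were not called and 0 fell by edgeR, with 0 lower at an unadjusted p under 0.05 and 0 lower by DESeq2, and the median log2 fold change was 0.59. HERPUD1 (chr16:56932142-56944864), a membrane scaffold that gathers the ERAD ligase complex, had 301.9, 182.0 and 222.0 normalised counts in the controls and 1426, 1445 and 1521 under rhArg. It rose 6.21-fold (log2 fold change 2.63, standard error 0.14, edgeR adjusted p = 4.38e-10), and shares no exon base with another gene. SEL1L (chr14:81471547-81533853), the adaptor that brings substrates to the ligase, had 562.1, 494.4 and 589.6 normalised counts in the controls and 1165, 1057 and 1199 under rhArg. It rose 2.08-fold (log2 fold change 1.05, standard error 0.10, edgeR adjusted p = 2.76e-07), again with all rhArg libraries above all controls. SYVN1, the ubiquitin ligase HRD1 that binds SEL1L, rose 1.45-fold, with 1246 to 1622 normalised counts in the controls and 1911 to 2247 under rhArg.

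The derlins, which line the exit path through the ER membrane, were unequal. DERL2 had 445.9, 374.8 and 459.6 normalised counts in the controls and 810.8, 766.4 and 835.9 under rhArg. It rose 1.88-fold (log2 fold change 0.91, standard error 0.11, edgeR adjusted p = 1.90e-06), whereas DERL1 was not called (log2 fold change 0.13, 95% interval from -0.07 to 0.34). DERL3 was the only member not tested, with 0 counts in every library, which allows up to 3 counts in each by counting error. Of its exon bases, 77.0% lie in SMARCB1 on the opposite strand, and SMARCB1 itself had 3 counts in the 6 libraries together, so the 0 is not read as absence of DERL3 mRNA. Among the lectin-like mannosidases that mark glycoproteins for degradation, EDEM3 rose 1.57-fold. EDEM1 missed the threshold (log2 fold change 0.28, 95% interval from 0.01 to 0.54, edgeR adjusted p = 0.0656, but 0.0452 with upper-quartile factors), and EDEM2 was not called (-0.23, 95% interval from -0.57 to 0.11).

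Of 6 genes of the translocon and its partners, SEC61A1 rose, SEC61B fell and 4 were not called, with a median log2 fold change of -0.01. SEC61A1 (chr3:128051641-128071705), the subunit that forms the protein-conducting channel, had 2732, 3218 and 2955 normalised counts in the controls and 4791, 4317 and 4460 under rhArg. It rose 1.52-fold (log2 fold change 0.61, standard error 0.09, edgeR adjusted p = 3.61e-05). SEC61B (chr9:99222064-99230615), a small tail-anchored subunit, had 527.3, 572.0 and 551.5 normalised counts in the controls and 326.1, 303.4 and 285.4 under rhArg. It was 1.80-fold lower (log2 fold change -0.85, standard error 0.11, edgeR adjusted p = 3.94e-06). The ratio of SEC61A1 to SEC61B counts, subunits of 1 complex, was 5.39 ± 0.22 in the controls and 14.9 ± 0.7 under rhArg (SD, n = 3 each), with no overlap. SEC61G, the remaining subunit, had a log2 fold change of -0.10 (95% interval from -0.39 to 0.20), and the translocon-associated proteins SSR1 and SSR2 had 0.09 and 0.11. SERP1, which guards nascent membrane proteins, was not called (-0.21, 95% interval from -0.46 to 0.05) but was lower without control replicate 2 (-0.31, edgeR adjusted p = 0.0244).

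The transcription factors of the response rose, and ERN1, the gene of IRE1, was not called. Of 6 sensors and transcription factors, 5 rose, 1 was not called and 0 fell by edgeR, with 0 lower at an unadjusted p under 0.05 and 0 lower by DESeq2, and the median log2 fold change was 0.76. XBP1 (chr22:28794555-28800597), the target of IRE1 splicing, had 1074, 1095 and 1013 normalised counts in the controls and 4576, 4569 and 4786 under rhArg. It rose 4.38-fold (log2 fold change 2.13, standard error 0.09, edgeR adjusted p = 2.80e-11), and its values within a group differed little. ERN1 had a log2 fold change of 0.02 (95% interval from -0.23 to 0.26, edgeR adjusted p = 0.906). ATF6 rose 1.45-fold, with 1156 to 1341 normalised counts in the controls and 1758 to 2017 under rhArg.

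The CREB3 family consists of membrane-bound factors that are cleaved in the Golgi as ATF6 is. CREB3L1 (chr11:46277662-46321409), a factor known for collagen and secretory genes, had 20.9, 22.6 and 22.5 normalised counts in the controls and 155.6, 175.6 and 176.4 under rhArg. The increase was 7.66-fold (edgeR adjusted p = 3.20e-09), the largest of the members, from the lowest level per exon length among them. CREB3 had 122.2, 150.8 and 121.3 normalised counts in the controls and 289.2, 276.4 and 214.0 under rhArg (log2 fold change 0.98, standard error 0.16, edgeR adjusted p = 5.08e-05). CREB3L2, the close paralog of CREB3L1, rose 1.45-fold, and its ratio to CREB3L1 counts was 17.2 ± 1.8 in the controls and 3.28 ± 0.58 under rhArg (SD, n = 3 each). CREB3L4, a further family member outside the list, was lower (log2 fold change -0.36, edgeR adjusted p = 0.00413) and was picked after its value was seen.

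Under rhArg the summed counts of the members held a smaller share of chaperones and larger shares of sensors and ERAD. Chaperones and luminal proteins took 49.1% ± 0.7 of the members' normalised counts in the control libraries and 38.9% ± 0.1 in the rhArg libraries (mean ± SD, n = 3 per group). Disulfide enzymes took 24.9% ± 0.8 and 22.0% ± 0.6 in the same order. The share of ERAD was 6.70% ± 0.37 and 11.3% ± 0.1, and that of sensors and transcription factors was 6.14% ± 0.45 and 12.7% ± 0.4. The translocon took 13.2% ± 0.5 and 15.1% ± 0.2. No class overlapped between the groups, and these shares are a description without a test, weighted toward the most abundant genes. They are parts of 1 total, so a smaller share of a class makes the others larger. Single genes carried much of the shift. The mean sum of the sensors went from 4144 to 8763 normalised counts, and XBP1 alone from 1061 to 4644. That of the chaperones went from 33177 to 26877, and CALR alone from 10679 to 6089. Within a library, the ratio of HSPA5 to XBP1 counts was 5.25 ± 0.40 in the controls (SD, n = 3) and 1.12 ± 0.07 in the rhArg libraries, and that of HSPA5 to HSP90B1 was 1.31 ± 0.11 and 2.40 ± 0.07.

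Levels were compared between genes as normalised counts per kb of annotated exon, a mean of 3 libraries. The length takes in every annotated exon base of a gene, shared bases included, and can exceed that of its mRNA. It was 13764 bases for CANX, 13092 for HSP90B1 and 3298 for PDIA4. In the controls CANX and HSP90B1 ranked below PDIA4 although their mean counts were higher (6725 and 4257, against 3044). Ranks between genes therefore depend on these lengths. CALR had the highest level of the 40 members in both groups, at 3811 in the controls and 2173 under rhArg. PDIA4 was next in the controls at 923 and fell to rank 9 at 409, while XBP1 moved from rank 10 at 350 to rank 2 at 1534. HSPA5 kept rank 3, at 852 and 798. HERPUD1 moved from rank 31 at 46.5 to rank 12 at 289, and SDF2L1 from rank 20 at 97.6 to rank 35 at 39.6. CREB3L1 moved from rank 40 at 5.47 to rank 34 at 42.1, so even after its increase it stayed among the lowest. Ranks close to each other do not imply a difference, since the median coefficient of variation of a member was 9.04% in the controls and 6.48% under rhArg. Within the rhArg group, replicate 2 was the lowest library for 24 of the 40 members, and within the controls replicate 2 was the highest for 21 and the lowest for 17.

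**Figure D3:**
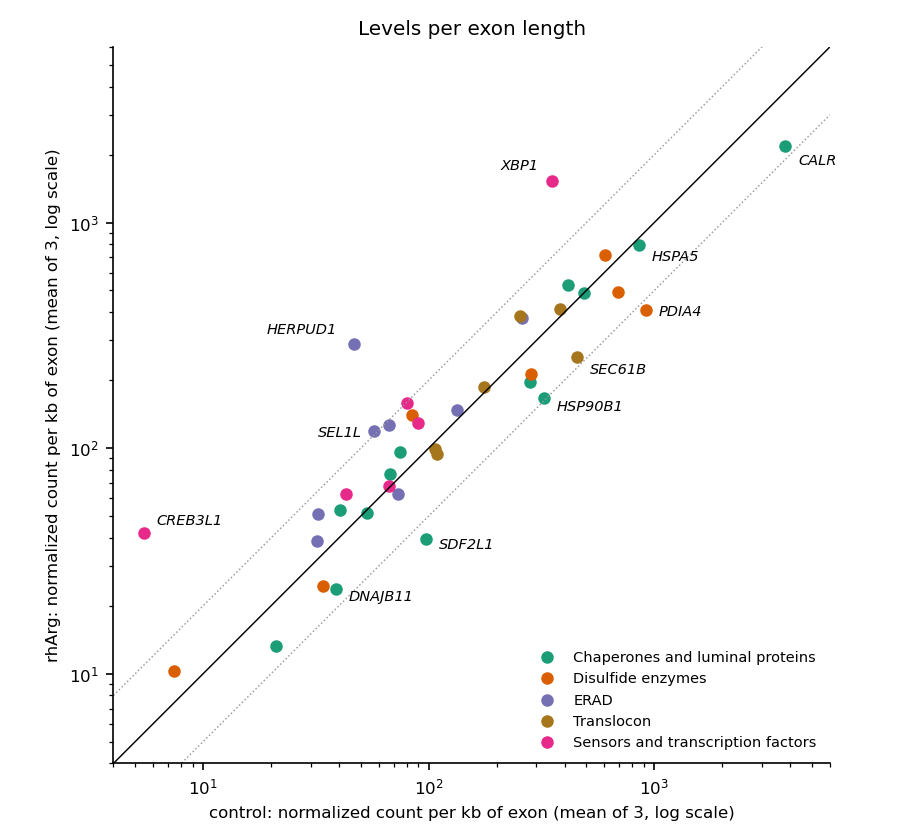
Mean level of each of the 40 tested members in the controls (x axis) and under rhArg (y axis), in normalised counts per kb of exon on log scales, coloured by class. The solid line marks equal levels and the dotted lines a change of 1 on the log2 scale. XBP1, HERPUD1 and CREB3L1 lie far above the line, PDIA4 and SDF2L1 below the lower dotted line, and HSPA5 close to equality.

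Members with ERSE were called in both directions. The element was found in 9 of 38 members (23.7%). It was in 0.141% of the 10668 tested genes with a window, 15 genes that include these 9, and in 0.0776% of all 34796 windows. Promoters of this family are known for the element, so its share among the members is background and not a result of these data. Of these 9, XBP1 and ERO1B rose, CALR, HSP90B1 and PDIA6 fell, and HSPA5, CANX, CRELD2 and SERP1 were not called. Their median log2 fold change was -0.09, against 0.28 in the members without a match. HSPA5 and XBP1 both carry the element close to the start, from -66 to -48 and from -52 to -34, and had log2 fold changes of -0.09 and 2.13. HSP90B1 carries it at 2 places and fell. A match is a description of letters and not a site shown to be bound in these cells.

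ERSE-II was found in HERPUD1, HYOU1 and SDF2L1 alone among the members, and in 0.0546% of all windows. HERPUD1 and HYOU1 rose, whereas SDF2L1 fell. HYOU1 has the element from -185 to -175 and again from -79 to -69, and a UPRE from -188 to -181 overlaps the first. UPRE was also found in DNAJC10, which rose, and in TXNDC5, which fell, and in 0.733% of all windows. CARE was found in HERPUD1, from -176 to -169 and so upstream of its ERSE-II (from -117 to -107), and in CREB3L2 from 16 to 23 after the start, and both rose. CARE is short and was in 3.63% of all windows, and the 281 tested genes with it had a median log2 fold change of 0.22, against -0.01 in those without.

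A further 8 lists of the same pathways, with 138 genes in all, were counted beside the members. Like the members, they were chosen with earlier results of these data known, so their counts are a description. Of all genes tested, 30.7% were higher and 30.9% lower, and 12.4% were higher DEGs. All 14 genes of the PERK and ATF4 arm rose and 0 fell by edgeR, with 0 lower at an unadjusted p under 0.05 and 0 lower by DESeq2, and 11 were DEGs, with a median log2 fold change of 2.19. ATF5, a stress-induced transcription factor, had 345.6, 443.8 and 414.6 normalised counts in the controls and 14595, 13818 and 17463 under rhArg (log2 fold change 5.25, standard error 0.13). ATF3, a repressor induced by ATF4, rose 17.2-fold, and TRIB3, a pseudokinase that feeds back on ATF4, rose 15.1-fold. The arm is shared with GCN2, so these counts cannot tell PERK from GCN2. EIF2AK3, the gene of PERK, is in this list and was higher (log2 fold change 0.89, standard error 0.14), and was named after its value was seen. The gene of GCN2 is not in these lists. An mRNA level does not give the activity of a kinase, and which kinase was active was not tested. CARE was found in 5 of 13 of these genes with a window.

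Of 8 tested genes of 11 in the list of other sensors and of genes that process or relay them, 4 fell, 1 rose and 3 were not called, and CREB3L4 is among the 4. RTCB, the ligase that joins the ends of cut XBP1 mRNA, was 1.62-fold lower (log2 fold change -0.69, standard error 0.10). MBTPS1, the Golgi protease that cleaves ATF6, and TRAF2, an adaptor of IRE1, were lower by log2 fold changes of -0.41 and -0.54, while the stress kinase gene MAP3K5 rose 2.26-fold.

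Other ERAD components were mixed, with 8 of 21 tested genes higher, 5 lower and 8 not called, and a median log2 fold change of 0.03, against 0.59 in the ERAD members. The count of higher genes was 5 without control replicate 3 or rhArg replicate 3. The ubiquitin ligase gene RNF185 and the HERPUD1 homolog HERPUD2 rose by log2 fold changes of 0.89 and 0.88. The ubiquitin-conjugating enzyme genes UBE2G2 and UBE2J2 and the VCP anchor gene UBXN4 fell by 0.77, 0.53 and 0.52 on the log2 scale. Among 17 tested disulfide and redox enzymes outside the members, 8 fell and 4 rose, with a median of -0.24. PDIA5, an isomerase, and PRDX4 and SELENOF, a peroxiredoxin and a selenoprotein, fell by 1.21, 0.95 and 0.95. GPX8, an ER peroxidase, rose 2.84-fold, and TXNDC12 and ERP29 rose 2.13-fold and 2.26-fold. TXNDC12 shares 54.1% of its exon bases with other genes, so its count is uncertain.

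Translocation and signal peptidase genes gave 6 higher and 5 lower of 19. SEC63, the J-domain partner of the SEC61 channel, rose with SEC61A1 (2.17-fold), as did TRAM1 and SEC11A (1.61-fold and 1.44-fold). SRP14 and SRP9, which form the Alu-binding end of the signal recognition particle, fell by 1.21 and 0.70 on the log2 scale, and SSR4 fell by 0.89. N-glycosylation and the lectin cycle gave 8 lower and 4 higher of 19, with the small oligosaccharyltransferase subunit OST4 (-1.04), glucosidase I (MOGS, -0.82) and the folding sensor UGGT1 (-0.72) lower, and the calnexin homolog CLGN (0.88), MAGT1 (0.56) and PRKCSH (0.43) higher, as log2 fold changes.

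ER exit and retrieval gave 7 higher and 7 lower of 17 tested genes. MCFD2, SAR1B and SEC24C, of cargo export, rose by log2 fold changes of 0.60, 0.64 and 0.38. SEC24C shares 42.8% of its exon bases with a gene on the opposite strand. KDELR1, which returns luminal chaperones to the ER, fell by 0.47, with SURF4 and PREB at -0.38 and -0.42. Of 16 other luminal folding factors, 4 rose and 6 fell. SERPINH1, a collagen chaperone, rose 2.57-fold, and NUCB2 and SDF2 rose by 0.71 and 0.42 on the log2 scale, while PPIB, SIL1 and FKBP7 fell by 0.58, 0.72 and 0.80. SDF2 and its paralog SDF2L1 therefore changed in opposite directions.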

How the data were processed

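RNA-seq of mRNA libraries from Y79 cells gave 3 control and 3 rhArg libraries, grouped by their labels. The authors cleaned the reads (SOAPnuke), mapped them to hg38 (HISAT2; versions not given in the sources used here) and deposited raw counts per gene. Per the file headers, featureCounts 2.0.1 counted fragments in exons of Ensembl 112 without strand, so fragments that hit several genes were not assigned. All 6 sample columns were used, and 0 were left out. Of 63140 gene IDs, 62541 had a symbol, and among IDs that share a symbol the one with most counts was kept.

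Counts were analysed with edgeR 4.0.16 in R 4.3.3 (filterByExpr, TMM, quasi-likelihood test, condition as the only term), with Benjamini-Hochberg adjustment over 15221 genes. TMM factors were 0.975 to 1.024 and the common dispersion was 0.0110. The script was tested on simulated counts. Counting error alone is covered by limits from a count of 0. DESeq2 1.42.0, other normalisations and filters, a replicate block and leaving out each library were alternatives.

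The members and lists were chosen with earlier results of these data known. In each class, up to 3 higher and 3 lower members with the smallest adjusted p have values in every library, other members have folds or ranges, and the same rule without values named genes of the further lists. Genes outside it are marked, and 1 gene that meets it is not reported here. HSPA5 and CANX are also shown in full. Protein features were not analysed here.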

Additional observations from a re-analysis of the deposited data

How the results depend on the processing

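Of 560 member calls (40 members under 14 alternatives), 542 kept their side of the threshold, 16 were lost, 2 were gained and 0 reversed. In all, 34 members kept their side throughout. DNAJB9, P4HB, TXNDC5, ERO1B, EDEM1 and SERP1 did not, and their folds were below 0.5 on the log2 scale. Direction was compared only where a call was made. CANX, CRELD2, SSR1 and ERN1, which were never called, took both signs over the alternatives. Members called higher numbered 14 to 18 and lower 10 to 11. With a library left out, disulfide enzymes called higher numbered 1 to 2 (3 with all), translocon genes called lower 1 to 2, and other ERAD components called higher 5 to 7 (8 with all), the last in a check of the further lists added after the data were seen. The cause was not tested, beyond the smaller number of samples. DNAJB9 and ERO1B were also lost with DESeq2 over all genes (adjusted p = 0.0591 and 0.0709). The class shares kept their direction with each library left out, and the chaperone share differed by -10.6 to -9.95 percentage points.

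With the replicate number as a block, 17 members were called higher and 11 lower, as without it, and all genes gave 4694 higher and 4691 lower. Deviations of libraries with the same number correlated at -0.078, 0.059 and 0.004, and not every library correlated best with its own number, so the numbers were not taken to pair the samples.

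With 12580622 to 13747351 counts a library, changes below about 0.2 on the log2 scale were within the intervals of most members. Genes at few counts, such as DERL3, could not be assessed.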
